A study of Homo sapiens with 12 samples.

Results

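Frame-preserving skipped exons are internal exons that some transcripts of a gene leave out and whose length is a whole number of codons, so that the reading frame after the exon is the same in both forms. They were taken from the deposited list of single-exon skips as every event whose skipped exon, with both end positions counted, was over 30 nt long and divisible by 3, and whose junctions held a mean of at least 20 reads per sample (the mean of the 2 inclusion junctions plus the skip junction). Of 24609 exon skips, 21477 reached that depth, and 8933 of these were members. The members are 7907 different exons in 4176 genes. A further 1187 events of the right length fell under the read minimum, and at that edge COA8 and FAM228B stood just inside with a mean of 20 reads and ABCB8 just outside with 19.96 reads. At the length edge, 70 exon skips of 33 nt were the shortest members and 46 of 30 nt were left out. The other exon skips tested beside them were 12062 events with frame-shifting exons over 30 nt (10594 different exons) and 482 events with exons of up to 30 nt (426 different exons). Because 850 member exons take part in more than 1 event (up to 7), and some events share a skip junction, the events are not independent of each other.

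All RNA was from the established pancreatic cancer line AsPC-1, in 4 groups of 3 samples (replicates A, B and C). Cells were transfected with a control siRNA (siControl) or with an siRNA against ARNT (siARNT), the shared partner of the HIF alpha subunits, and were then kept at 21% O2 (normoxia) or moved to 1% O2 for 24 h (hypoxia). RNA was harvested 48 h after transfection in every group. All cells were of 1 line and all went through transfection, and the labels mention wells in triplicate without saying whether these were separate experiments, so p-values measure the spread between these samples. The comparisons ask which exon choices differ under hypoxia, which differ with siARNT, and whether the hypoxia difference depends on the siRNA. HIF activity itself is not measured here.

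When an exon is skipped, the splicing machinery joins its neighbours directly. If the exon length is a multiple of a codon, a protein that lacks only the stretch encoded by the exon can be made, whereas other lengths change every codon downstream and usually bring in an early stop. Such cassette exons are frequent in proteins of the cytoskeleton, of membrane traffic and of RNA processing, and epithelial and mesenchymal cells differ in the use of many of them.

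The sequences of 9 wholly coding exons that the results below turn on are shown here so that the stretch gained or lost can be read. The exon is in capitals, the 12 bases on either side in lower case are the ends of the neighbouring exons, and the strand is that of the gene, 5′ to 3′. All are from GENCODE 29 on GRCh38, as PCBP2 at chr12:53467805-53467843 (+), APLP2 at chr11:130137256-130137291 (+), EIF4H at chr7:74190247-74190306 (+), PICALM at chr11:85990250-85990399 (-), ABI1 at chr10:26755655-26755741 (-), OPA1 at chr3:193626092-193626202 (+), SH3D19 at chr4:151144220-151144288 (-), ADD3 at chr10:110132305-110132400 (+) and PARD3 at chr10:34372498-34372536 (-).
PCBP2: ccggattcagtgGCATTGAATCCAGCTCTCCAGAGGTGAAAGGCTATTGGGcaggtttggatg
APLP2: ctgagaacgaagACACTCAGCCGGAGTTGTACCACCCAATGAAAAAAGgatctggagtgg
EIF4H: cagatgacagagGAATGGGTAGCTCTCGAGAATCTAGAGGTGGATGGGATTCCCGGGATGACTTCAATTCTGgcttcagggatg
PICALM: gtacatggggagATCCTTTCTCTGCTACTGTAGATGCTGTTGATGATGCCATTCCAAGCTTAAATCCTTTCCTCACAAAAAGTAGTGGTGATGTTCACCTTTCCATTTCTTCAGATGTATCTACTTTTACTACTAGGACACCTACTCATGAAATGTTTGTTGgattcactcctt
ABI1: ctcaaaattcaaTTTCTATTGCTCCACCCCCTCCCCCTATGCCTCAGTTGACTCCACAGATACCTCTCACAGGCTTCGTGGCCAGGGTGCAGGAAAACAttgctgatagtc
OPA1: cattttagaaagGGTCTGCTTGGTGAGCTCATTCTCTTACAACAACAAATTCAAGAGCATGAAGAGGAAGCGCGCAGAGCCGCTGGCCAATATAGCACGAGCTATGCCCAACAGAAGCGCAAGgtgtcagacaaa
SH3D19: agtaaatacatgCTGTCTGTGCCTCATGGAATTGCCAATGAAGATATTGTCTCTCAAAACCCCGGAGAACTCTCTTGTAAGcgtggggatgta
ADD3: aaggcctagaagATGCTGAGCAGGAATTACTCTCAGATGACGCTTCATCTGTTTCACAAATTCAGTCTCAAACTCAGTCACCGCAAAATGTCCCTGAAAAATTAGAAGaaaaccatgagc
PARD3: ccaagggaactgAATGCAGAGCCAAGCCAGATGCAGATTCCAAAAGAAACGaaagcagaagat
The OPA1, SH3D19 and PARD3 exons begin on a codon boundary, whereas the other 6 begin with the last 2 bases of a codon that the upstream exon opens.

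Gene counts summed to 38.5 to 84.3 M per library, and junction reads over all exon skips to 7.57 to 16.6 M. ARNT, the target of the siRNA, stood at 12.9 to 72.3 CPM (reads per M reads in genes) over the 12 libraries. With siARNT its mean was 13.4 ± 0.470 CPM in normoxia against 62.0 ± 1.44 with siControl, and 15.3 ± 1.13 against 69.3 ± 4.67 in hypoxia (SD, n = 3 per group). The label of an epithelial tumour line was checked with 8 epithelial genes, which summed to 5915 to 10095 CPM and were all above 1 CPM. Of the markers of other cells, 5 of 6 fibroblast genes, 3 of 5 leukocyte genes and both matched endothelial genes stayed under 1 CPM in every library, the exceptions being LUM, LYZ and CD68. LUM stood at 338 to 603 CPM and LYZ at 128 to 228 CPM, whereas CD68 reached at most 1.03 CPM. LUM and LYZ thus lay above the epithelial genes MUC1 (13.4 to 43.4 CPM) and S100P (2.32 to 6.38 CPM). In bulk RNA, fewer cells that use an exon and less of it per cell cannot be told apart.

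Most member exons were included in most transcripts, in every group. The percent spliced in (PSI, here a fraction: inclusion reads over inclusion plus skip reads) had a median over members of 0.95 in each normoxia sample and each hypoxia siControl sample and 0.94 to 0.95 in hypoxia siARNT. The mean PSI of siControl samples was 0.770 ± 0.000753 in normoxia and 0.768 ± 0.000809 in hypoxia, and that of siARNT samples was 0.766 ± 0.000727 and 0.763 ± 0.00336 (SD, n = 3 per group). The 4 group means therefore lay within a narrow band, and hypoxia siARNT spread most between its samples. A PSI of at least 0.9 was held by 63.3% of members in normoxia siControl, while 25.8% lay between 0.1 and 0.9. The depth of the rarer form is small: the median member held a mean of 143.7 reads per sample but 8.75 skip reads, and 37.6% had fewer than 5. Few skip reads limit the detection of small shifts in PSI. The smallest shift that could be detected was not computed.

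Skip junctions took a smaller share of the reads in members than in frame-shifting exons in each group. In members the share was 10.8% with siControl and 11.4% with siARNT in normoxia, and 10.5% and 11.3% in hypoxia. In frame-shifting exons the same groups stood at 14.5%, 15.2%, 14.4% and 14.5%. These shares describe pooled reads and were not tested.

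By annotation the members were largely protein-coding and tended to begin on a codon boundary. Of the 7907 member exons, 81.4% were matched to 1 GENCODE 29 exon by gene, exon length and the lengths of both introns. Of those matched, 81.7% were wholly coding (68.3% of matched frame-shifting exons), 4.26% lay in a UTR and 9.45% in noncoding transcripts. A transcript that joins the neighbours directly was annotated for 66.6%. Among coding members, 56.8% began on a codon boundary, 14.4% needed 1 base removed before the first whole codon and 28.8% needed 2. The same shares in frame-shifting exons were 39.0%, 27.5% and 33.5%. An in-frame stop codon was found in 1 coding member. The median length was 108 nt (quartiles 78 and 150, range 33 to 7665), and the median GC content was 45.8% against 45.3% in frame-shifting exons.

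**Figure D1:**
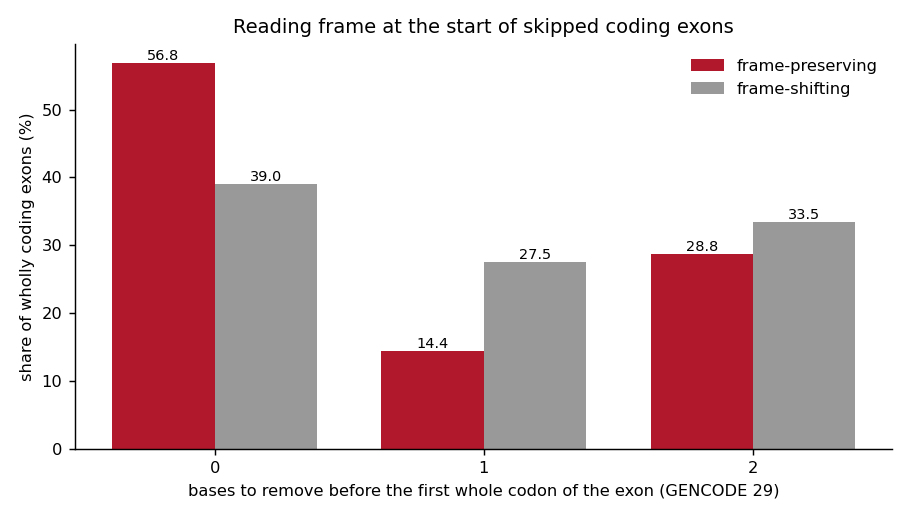
Share of wholly coding skipped exons (percent, vertical axis) by the number of bases to remove before the first whole codon (horizontal axis), for frame-preserving exons in red and frame-shifting exons in grey. Of frame-preserving exons, 56.8% begin on a codon boundary, against 39.0% of frame-shifting ones.

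Differences between groups were small and were called for few members. Inclusion and skip reads were tested as a ratio with edgeR's quasi-likelihood test on all 21477 exon skips, the effect being the log2 odds ratio of inclusion to skip, and an exon skip was called at a Benjamini-Hochberg adjusted p under 0.05. For hypoxia in siControl, 0.126% of all exon skips were called (0.0233% up, 0.102% down), and 17 of the 8933 members were called, 2 up and 15 down. For hypoxia in siARNT, 0.0792% of all were called (0.00466% up, 0.0745% down), and 13 members, 0 up and 13 down. For siARNT in normoxia, 0.419% were called (0.0698% up, 0.349% down), and 44 members, 12 up and 32 down. For siARNT in hypoxia, 0.289% were called (0.0698% up, 0.219% down), and 31 members, 7 up and 24 down. For the interaction, which asks whether the siARNT and siControl hypoxia changes differ, 0.0233% were called, and 3 members, all up. When each of the 12 libraries was left out in turn, called members numbered 10 to 15, 2 to 14, 10 to 43, 6 to 27 and 2 to 6 in this order. At an unadjusted p under 0.05 the 5 counts of members were 536, 474, 775, 628 and 339. These are 6.00%, 5.31%, 8.68%, 7.03% and 3.79% of members. Over all exon skips the shares were close to these, at 5.93%, 4.88%, 8.55%, 6.71% and 4.27%. Comparisons that involve the same group share its samples.

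How many members are called depends on how the spread of the counts is modelled, and the setting used here was chosen after other settings had been run on these data. It takes the variance from a quasi-likelihood spread fitted to each event with no extra count dispersion, and of the 5 settings compared it gave the most calls in each of the 4 comparisons between groups. On simulated counts both this setting and the default trend missed most of the changes put in. This setting recovered more of them than the default trend. Its share of false calls was also higher and lay above the nominal level, so single calls near the threshold should be read with that in mind. The simulated counts kept the read totals and gave each event its own spread of the inclusion share, which is close to what this setting assumes. Changes were put only into events with a limited spread and at least 5 reads of the rarer form. The simulation therefore cannot justify the choice of setting. With edgeR's default dispersion trend the calls over all exon skips were 0.0186%, 0.0%, 0.014%, 0.00931% and 0.0233%, in the order of comparisons above, and members called numbered 2, 0, 2, 1 and 3. DESeq2 called 0.247%, 0.172%, 0.47%, 0.475% and 0.163% of all exon skips, with 25, 20, 41, 43 and 14 members. limma on the log ratio called 2, 4, 2, 4 and 4 members. Among the named exons, 45 pairs of an exon and a comparison were called by the first setting. Of these the default trend called 8 (MKI67 for siARNT in hypoxia, and RPL10 and RNF103), limma called 9, and DESeq2 called 39 of the 43 for which it gave an adjusted p. All of these fits gave the same direction. The calls named below are those of the first setting.

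**Figure D2:**
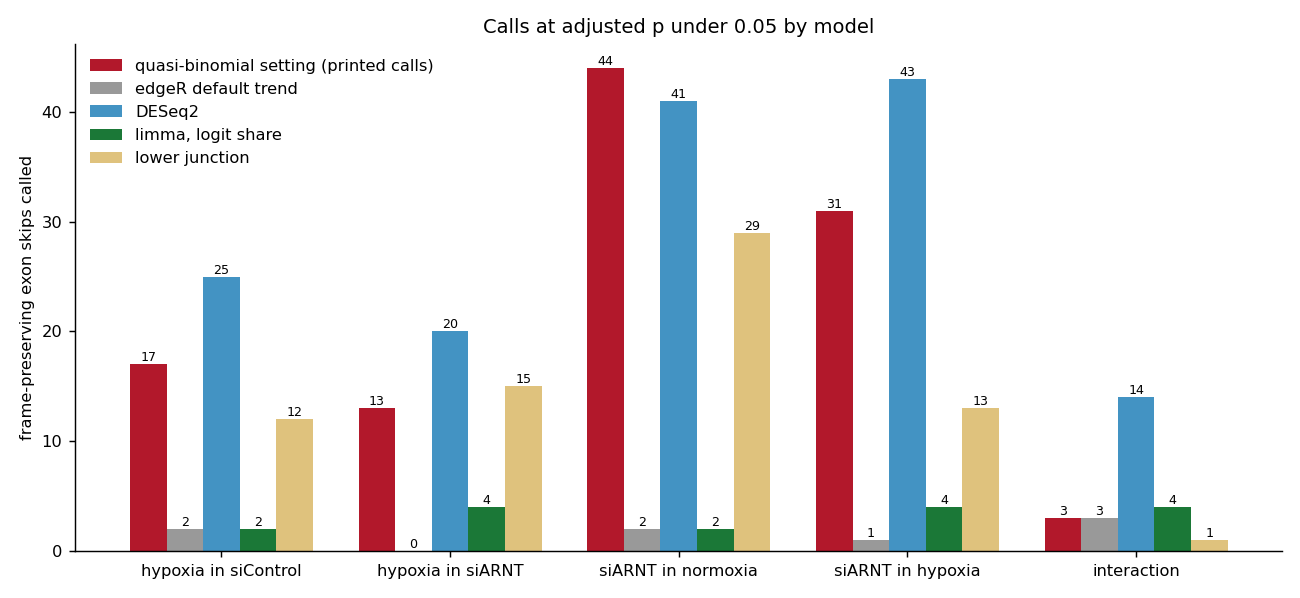
Number of frame-preserving exon skips called at an adjusted p under 0.05 (vertical axis) in each comparison (horizontal axis) under the alternative models of the spread and test. The setting used gives 17, 13, 44, 31 and 3, and edgeR's default trend gives 2, 0, 2, 1 and 3.

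Called members had deeper junctions than most and mostly small shifts. Their median difference in mean PSI, without sign, was 0.08 for hypoxia in siControl, 0.0833 in siARNT, 0.0767 for siARNT in normoxia and 0.0833 in hypoxia. With a PSI difference of at least 0.1 as a second condition, 4, 3, 17 and 12 members were called, beside 0.0466%, 0.0233%, 0.186% and 0.13% of all exon skips. For hypoxia in siControl, called members held a median of 2189 reads against 143.7 over all members. The read coverage of the exon relative to its neighbours, which the test did not use but which comes from the same reads, moved the same way as the call in 17 of 17, 13 of 13, 42 of 44 and 30 of 31 called members. Over all members this held for 61.1%, 61.3%, 63.3% and 61.0%.

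**Figure D3:**
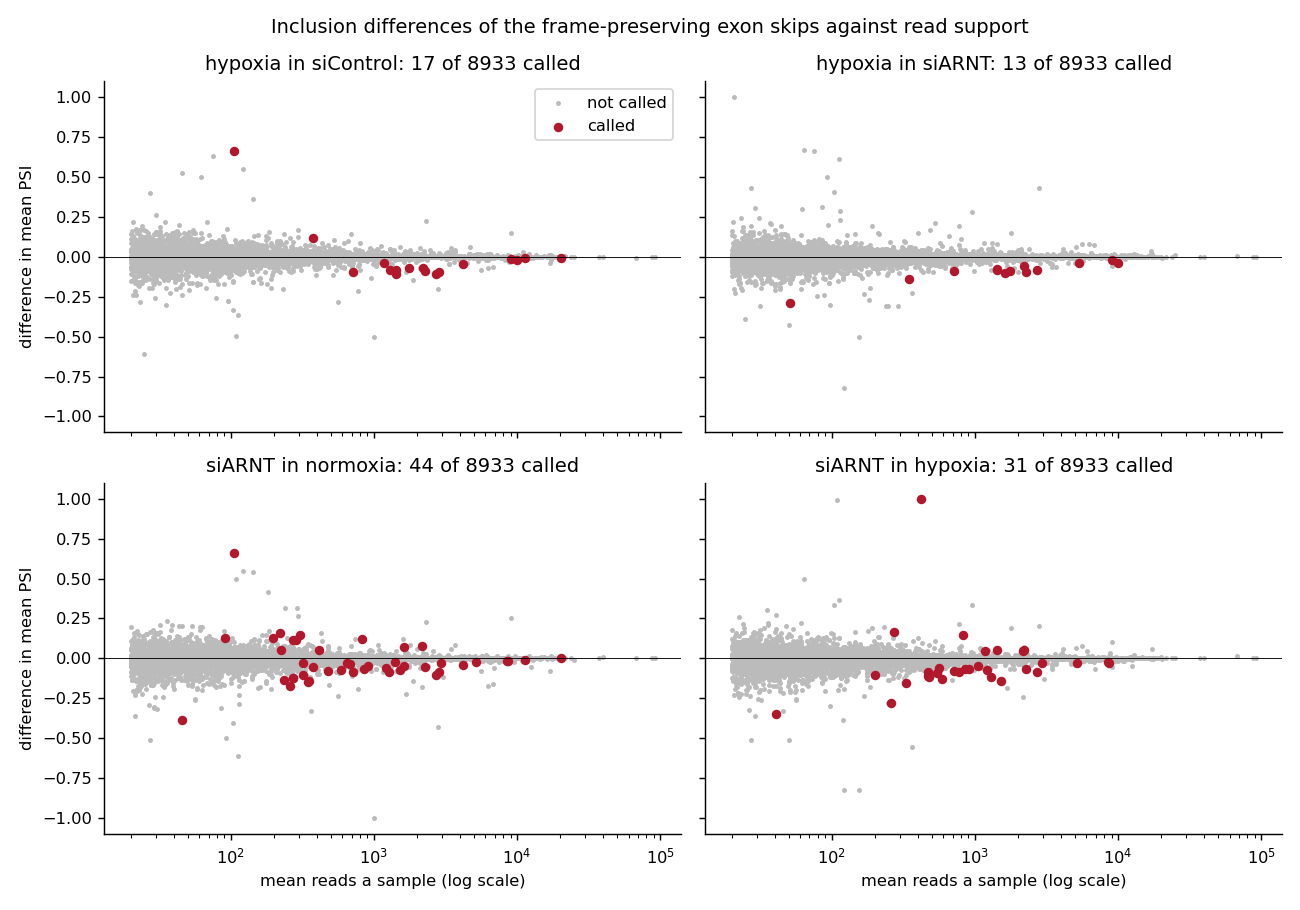
Difference in mean PSI (vertical axis, fraction) against mean reads per sample (horizontal axis, log scale) for the 8933 frame-preserving exon skips, 1 panel for each comparison between groups, with called members marked. Called members lie mostly below 0 and toward deep junctions.

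Altogether 68 members were called in at least 1 comparison; they are 67 exons of 52 genes, 38 called once and 30 in 2 or more comparisons. The 9 members called for hypoxia in both siRNA groups are 52.9% of the siControl calls and 69.2% of the siARNT calls. The 16 called for siARNT at both oxygen levels are 36.4% of the normoxia calls and 51.6% of the hypoxia calls. Some genes enter with more than 1 event, CD46, MYOF and ASPH in the hypoxia set and CD46, S100A4 and CYP3A5 in the siARNT set. These members are therefore not independent, and the same overlap over all exon skips was not counted. Of the 68, 47 were matched to the annotation, 34 of these being wholly coding and 46 having the skip form annotated. In 22 of the 68 the rarer inclusion junction held under 0.2 of the reads of the other, so that 2 different splice patterns enter the inclusion count.

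A set of coding cassette exons was used less under hypoxia in siControl. The exon of EIF4H, a helper of the helicase that unwinds mRNA leaders for translation, is 60 nt long (20 codons). Its PSI was 0.22, 0.19 and 0.22 in normoxia siControl and 0.11, 0.09 and 0.10 in hypoxia siControl. With siARNT it was 0.19, 0.19 and 0.21 in normoxia and 0.13, 0.10 and 0.12 in hypoxia. All 6 hypoxia samples lay below all 6 normoxia samples. Exons named for a comparison between groups had to show no overlap in PSI between the 2 groups compared. Lack of overlap within such a comparison is therefore no further support for these exons. Over all members it held for 8.45%, 7.09%, 10.0% and 8.69% in the 4 comparisons between groups, in the order above. Hypoxia in siControl gave a log2 odds ratio of -1.24 (SE 0.12, adjusted p 0.000408). In siARNT it was -0.85 (SE 0.13, adjusted p 0.0266). The first was called in all 12 fits that each left out 1 library, and the second in 6 of 12 (adjusted p 0.0194 to 0.135). The EIF4H gene level did not pass the test under hypoxia in siControl (log2 fold change -0.05, adjusted p 0.613).

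PCBP2, a poly(C)-binding protein that acts in mRNA stability and splicing, has a 39 nt exon that was called in all 4 comparisons between groups. PSI was 0.55, 0.54 and 0.55 in normoxia siControl, 0.43, 0.43 and 0.46 in hypoxia siControl, 0.43, 0.45 and 0.44 in normoxia siARNT and 0.32, 0.36 and 0.39 in hypoxia siARNT. The highest group was thus normoxia siControl and the lowest hypoxia siARNT, with the other groups between them. Log2 odds ratios were -0.61 (SE 0.07, adjusted p 0.00207) for hypoxia in siControl, -0.50 (SE 0.08, adjusted p 0.0394) for hypoxia in siARNT, -0.65 (SE 0.07, adjusted p 0.0013) for siARNT in normoxia and -0.53 (SE 0.08, adjusted p 0.0172) for siARNT in hypoxia. The siControl hypoxia call and the normoxia siARNT call held in all 12 leave-one-library fits. Hypoxia in siARNT was called in 2 of 12 (adjusted p 0.0104 to 0.191). The siARNT call in hypoxia was lost without hypoxia siARNT replicate A (adjusted p 0.0653), hypoxia siARNT replicate B (0.076) or hypoxia siControl replicate A (0.0556), against 0.00611 to 0.076 over the 12 fits.

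The same order of groups was seen in an exon of CD46 and an exon of PICALM. CD46, a membrane protein that protects cells from complement, has a 93 nt exon at its 3′ end that is coding in part. Its PSI was 0.56, 0.55 and 0.54 in normoxia siControl, 0.45, 0.46 and 0.48 in hypoxia siControl, 0.48, 0.50 and 0.50 in normoxia siARNT and 0.40 in each hypoxia siARNT sample. It was called in all 4 comparisons, with log2 odds ratios of -0.54 (SE 0.06, adjusted p 0.000929) and -0.51 (SE 0.06, adjusted p 0.00914) for hypoxia in siControl and siARNT, and -0.38 (SE 0.06, adjusted p 0.0106) and -0.36 (SE 0.06, adjusted p 0.0343) for siARNT in normoxia and hypoxia. The first held in all 12 leave-one-library fits and the last in 3 of 12 (adjusted p 0.0383 to 0.174). Hypoxia in siARNT was lost without hypoxia siARNT replicate A (adjusted p 0.0517) or B (0.0514), the range being 0.00386 to 0.0517. The siARNT call in normoxia was lost without normoxia siARNT replicate A (0.11) or normoxia siControl replicate A (0.134), the range being 0.00481 to 0.134. A 72 nt form of the same exon shares the skip junction, and its own downstream junction held a mean of 31.1 reads against 1142 at the shared side, so its calls repeat those of the 93 nt form. Another CD46 exon, of 45 nt and coding, was called the other way for siARNT. Its difference in mean PSI was 0.08 in normoxia (adjusted p 0.000293) and 0.0467 in hypoxia (adjusted p 0.0329). It was called in neither hypoxia comparison. PICALM, an adaptor that brings clathrin to membranes, has a 150 nt exon with PSI of 0.42, 0.43 and 0.44 in normoxia siControl, 0.34, 0.31 and 0.36 in hypoxia siControl, 0.36, 0.33 and 0.34 in normoxia siARNT and 0.26, 0.25 and 0.26 in hypoxia siARNT. Its 4 log2 odds ratios ran from -0.48 to -0.64 with adjusted p from 0.0338 to 0.0438. Each of the 4 calls held in only 2 or 3 of 12 leave-one-library fits, where adjusted p ran up to 0.294, while the log2 odds ratios stayed between -0.43 and -0.69.

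APLP2, a relative of the amyloid precursor protein, and ADD3, which caps actin filaments under the membrane, also fell under hypoxia in siControl. The 36 nt APLP2 exon had PSI of 0.40, 0.41 and 0.40 in normoxia siControl, 0.31, 0.30 and 0.31 in hypoxia siControl, 0.32, 0.31 and 0.33 in normoxia siARNT and 0.30, 0.29 and 0.25 in hypoxia siARNT. Normoxia siControl alone stood apart from the other 9 samples. The log2 odds ratio was -0.59 (SE 0.08, adjusted p 0.00439) for hypoxia in siControl and -0.51 (SE 0.06, adjusted p 0.00299) for siARNT in normoxia, and both held in all 12 leave-one-library fits. For hypoxia in siARNT it was -0.30 and did not pass (adjusted p 0.31). The 96 nt ADD3 exon had PSI of 0.59, 0.63 and 0.58 in normoxia siControl and 0.51, 0.51 and 0.54 in hypoxia siControl, a log2 odds ratio of -0.45 (SE 0.07, adjusted p 0.0371) that was called in 1 of 12 leave-one-library fits, the one without hypoxia siControl replicate C (adjusted p over the 12 fits 0.0354 to 0.251). In siARNT, ADD3 stood at 0.59, 0.59 and 0.56 in normoxia and 0.51, 0.49 and 0.50 in hypoxia, with the same log2 odds ratio of -0.45 and an adjusted p of 0.0606.

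Of the 2 members called upward for hypoxia in siControl, 1 was an exon of ABI1. ABI1 belongs to the complex that starts branched actin growth at the cell edge. Its 87 nt exon had PSI of 0.43, 0.42 and 0.44 in normoxia siControl and 0.53, 0.54 and 0.58 in hypoxia siControl, while siARNT samples lay at 0.50, 0.51 and 0.49 in normoxia and 0.55, 0.52 and 0.53 in hypoxia. The siControl groups did not overlap, which the rule for naming the exon required. The log2 odds ratio was 0.67 (SE 0.11, adjusted p 0.0411), and the call was lost in every one of the 12 leave-one-library fits (adjusted p 0.0596 to 0.216, log2 odds ratio 0.58 to 0.75).

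**Figure D4:**
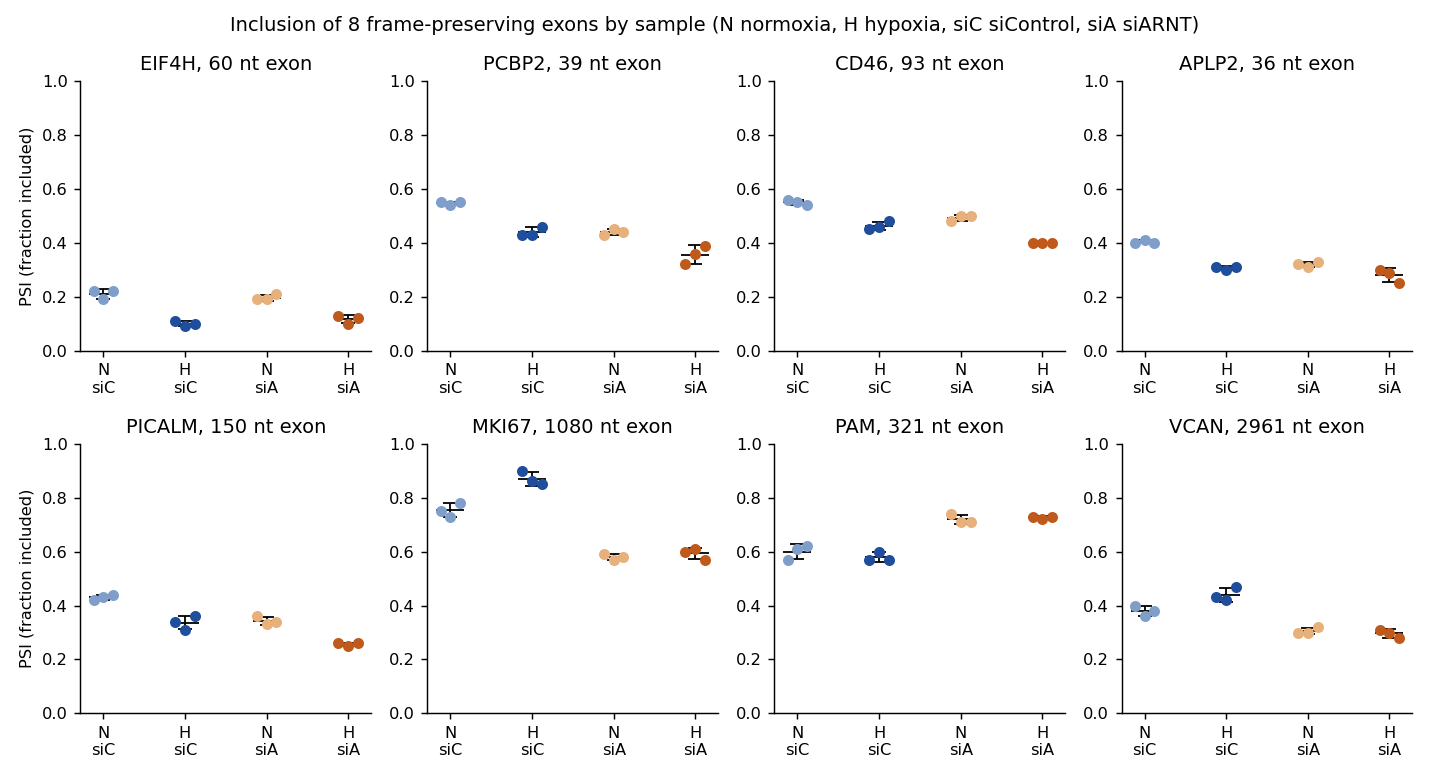
PSI (fraction, vertical axis) of named frame-preserving exons in each of the 12 samples (points), by group (horizontal axis), with bars for the mean and SD of 3 samples. For EIF4H the 6 hypoxia samples lie at 0.09 to 0.13 and the 6 normoxia samples at 0.19 to 0.22.

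The next exons were called for siARNT. MKI67, the proliferation antigen Ki-67 that coats mitotic chromosomes, has a 1080 nt exon (360 codons). Its PSI was 0.75, 0.73 and 0.78 in normoxia siControl, 0.59, 0.57 and 0.58 in normoxia siARNT, 0.90, 0.86 and 0.85 in hypoxia siControl and 0.60, 0.61 and 0.57 in hypoxia siARNT. All 6 siARNT samples lay below all 6 siControl samples. The log2 odds ratio for siARNT was -1.15 (SE 0.15, adjusted p 0.0038) in normoxia and -2.31 (SE 0.20, adjusted p 0.00061) in hypoxia, and both held in all 12 leave-one-library fits. Hypoxia in siControl gave 1.22 (SE 0.21), which missed the threshold (adjusted p 0.0562), and the interaction did not pass either (adjusted p 0.99). The MKI67 gene level rose with siARNT (log2 fold change 0.34 in normoxia, adjusted p 0.00717, and 0.64 in hypoxia, adjusted p 4.03e-05).

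In PAM, the enzyme that amidates the ends of secreted peptides, a 321 nt exon was used more with siARNT. It had PSI of 0.57, 0.61 and 0.62 in normoxia siControl, 0.74, 0.71 and 0.71 in normoxia siARNT, 0.57, 0.60 and 0.57 in hypoxia siControl and 0.73, 0.72 and 0.73 in hypoxia siARNT. The siRNA groups did not overlap at either oxygen level, as the rule for naming the exon required. The hypoxia difference in mean PSI was -0.02 in siControl and 0.00667 in siARNT, neither of them called. The log2 odds ratio was 0.83 (SE 0.10, adjusted p 0.00216) in normoxia and 0.94 (SE 0.10, adjusted p 0.0015) in hypoxia, held in all 12 leave-one-library fits. The PAM gene level did not pass in either (adjusted p 0.997 and 0.334). Another PAM exon of 204 nt, and a 201 nt form of it, went the other way and were called for siARNT in hypoxia. Their difference in mean PSI was -0.0867 in both (adjusted p 0.0172 and 0.0396).

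VCAN, a large proteoglycan of the matrix around cells, has a 2961 nt exon that encodes part of its sugar-carrying region. PSI was 0.40, 0.36 and 0.38 in normoxia siControl, 0.30, 0.30 and 0.32 in normoxia siARNT, 0.43, 0.42 and 0.47 in hypoxia siControl and 0.31, 0.30 and 0.28 in hypoxia siARNT. Again the siARNT samples were the lower ones at both oxygen levels. For siARNT in hypoxia the log2 odds ratio was -0.88 (SE 0.09, adjusted p 0.0015, called in all 12 leave-one-library fits). In normoxia it was -0.47 (SE 0.09, adjusted p 0.0491, called in 3 of 12 fits with adjusted p 0.0201 to 0.279). The VCAN gene itself fell by 0.81 in normoxia and by 1.10 in hypoxia on the log2 scale (adjusted p 0.000245 and 8.17e-06).

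SH3D19, PARD3 and OPA1 were called for siARNT in hypoxia alone. SH3D19, an adaptor with SH3 domains that binds ADAM proteases, has a 69 nt exon whose PSI was 0.36, 0.37 and 0.41 in hypoxia siControl and 0.20, 0.26 and 0.21 in hypoxia siARNT (log2 odds ratio -1.06, SE 0.16, adjusted p 0.019). In normoxia it stood at 0.40, 0.42 and 0.39 against 0.28, 0.28 and 0.32 with siARNT, which missed the threshold (-0.71, adjusted p 0.0561). PARD3, a scaffold of cell polarity at tight junctions, has a 39 nt exon with PSI of 0.39, 0.41 and 0.39 in hypoxia siControl and 0.30, 0.28 and 0.28 in hypoxia siARNT (-0.71, SE 0.13, adjusted p 0.038), called in 3 of 12 leave-one-library fits (adjusted p 0.033 to 0.176). For OPA1, which fuses the inner membranes of mitochondria, the 111 nt exon had PSI of 0.31, 0.35 and 0.29 in hypoxia siControl and 0.45, 0.50 and 0.50 in hypoxia siARNT (1.03, SE 0.17, adjusted p 0.0304). Normoxia values of OPA1 were 0.37, 0.42 and 0.38 in siControl and 0.47, 0.49 and 0.41 in siARNT, which overlap. SH3D19 was called in 7 of 12 leave-one-library fits (adjusted p 0.0153 to 0.0798) and OPA1 in 6 of 12 (0.0314 to 0.163). Whether the siARNT difference changes with oxygen is the interaction, which none of these 3 exons passed.

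Some named members are exons of noncoding transcripts. EIF4A2, the helicase that EIF4H assists, has a 111 nt exon of this kind, with PSI of 0.24, 0.23 and 0.24 in normoxia siControl, 0.30, 0.31 and 0.32 in normoxia siARNT, 0.20, 0.23 and 0.19 in hypoxia siControl and 0.19, 0.21 and 0.22 in hypoxia siARNT. It rose with siARNT in normoxia (log2 odds ratio 0.54, SE 0.08, adjusted p 0.00998) and fell with hypoxia in siARNT (-0.79, SE 0.09, adjusted p 0.0074). The former was lost without normoxia siControl replicate A (adjusted p 0.0588; range 0.00599 to 0.0588) and the latter without hypoxia siARNT replicate A (0.0517; range 0.00247 to 0.0517). In RSRP1, a gene for an arginine- and serine-rich protein, the 45 nt exon had PSI of 0.44, 0.44 and 0.37 in normoxia siARNT and 0.11, 0.13 and 0.14 in hypoxia siARNT, at a mean of 50.9 reads (-2.33, SE 0.33, adjusted p 0.0216, called in 8 of 12 leave-one-library fits with adjusted p 0.0272 to 0.152). Without hypoxia siARNT replicate A, hypoxia siARNT replicate B, normoxia siARNT replicate A or normoxia siARNT replicate B the RSRP1 adjusted p was 0.119, 0.0964, 0.152 and 0.0759. The RSRP1 values in siControl were 0.52, 0.54 and 0.54 in normoxia and 0.35, 0.36 and 0.26 in hypoxia, a log2 odds ratio of -1.26 that did not pass (adjusted p 0.25). ZNF608, a zinc finger gene, has a 42 nt exon at 45.8 reads with PSI of 0.63, 0.65 and 0.59 in normoxia siControl and 0.27, 0.13 and 0.31 in normoxia siARNT (-2.49, SE 0.48, adjusted p 0.0447, called in 3 of 12 fits with adjusted p 0.0274 to 0.267).

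In another 6 named members the inclusion reads came almost wholly from 1 of the 2 junctions, so that PSI there does not measure a simple cassette exon. They are the 1005 nt exon of WSB1, the 345 nt exon of URI1, the 495 nt exon of F3 (tissue factor, the starter of blood clotting), the 204 nt exon of PRPF4B and the 87 nt exons of NPIPA1 and NPIPA7. In WSB1 the junctions held means of 349 and 37.0 reads, in URI1 278 and 3.08, in F3 266 and 3.33 and in PRPF4B 54.3 and 3.08. All 6 calls were lost when the lower junction was taken as the inclusion count. NPIPA1 and NPIPA7 are near-identical copies that share reads, and both gave the same log2 odds ratio of -1.33 for siARNT in normoxia. F3 rose with siARNT in normoxia, from PSI of 0.37, 0.38 and 0.38 to 0.57, 0.49 and 0.51 (0.90, SE 0.15, adjusted p 0.0146), while its gene level fell by 1.49 on the log2 scale (adjusted p 2.83e-07). Without normoxia siARNT replicate A or normoxia siControl replicate A the F3 call was lost (adjusted p 0.144 and 0.0977, range 0.0155 to 0.144).

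The 3 members called in the interaction were 2 exons of RPL10 and 1 of RNF103, and none is a difference of more than a few hundredths in PSI. RPL10 encodes a protein of the large ribosomal subunit and has near-identical copies in the genome, so its junction reads are uncertain. Its 108 nt exon and a 63 nt form share 1 skip junction, which held 0 reads in each normoxia siControl sample, against 341 reads in hypoxia siControl, 324 in normoxia siARNT and 285 in hypoxia siARNT, each summed over 3 samples. As a share of the reads at the 108 nt exon this is 0 of 54947, which allows up to 0.00546% (3 reads), then 0.52%, 0.436% and 0.609%. The fitted log2 odds ratios against a group at 0 depend on how the fit treats 0 and are no bound. RNF103, a ubiquitin ligase of the endoplasmic reticulum, has a 72 nt exon with a PSI of 0.03 in each normoxia siControl sample, 0.00 in each normoxia siARNT and hypoxia siControl sample, and 0.02, 0.02 and 0.04 in hypoxia siARNT. These values rest on 30 inclusion reads in normoxia siControl and 23.5 in hypoxia siARNT, nearly all from 1 junction, against 2 in hypoxia siControl and 1.5 in normoxia siARNT.

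Other called members had small PSI differences at great depth or doubtful counts, and these were chosen after their values were seen. ASPH, a hydroxylase of the endoplasmic reticulum, has a 57 nt exon at a mean of 10034 reads whose PSI changed by -0.0233 for hypoxia in siControl (log2 odds ratio -0.93, adjusted p 0.000151) and by -0.0367 in siARNT (-1.03, adjusted p 0.000167), called in all 12 leave-one-library fits in both. MYOF, a membrane repair protein, has a 39 nt exon that changed by -0.07 (-0.51, adjusted p 0.000907) and by -0.0567 (-0.43, adjusted p 0.0216), called in 12 and 7 of 12 such fits (adjusted p up to 0.00762 and 0.155). With siARNT in hypoxia the same MYOF exon changed the other way, by 0.05 in PSI (log2 odds ratio 0.34, adjusted p 0.0291), called in 7 of 12 such fits (adjusted p 0.0361 to 0.178). In RPL31, a ribosomal protein gene with many copies, a 126 nt event was called for hypoxia in siControl and for siARNT in normoxia, on 1 normoxia siControl sample that held 340 skip reads (PSI 0.34), the skip form having 0 reads in the other 11. The RPL31 values are therefore uncertain.

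**Figure D5:**
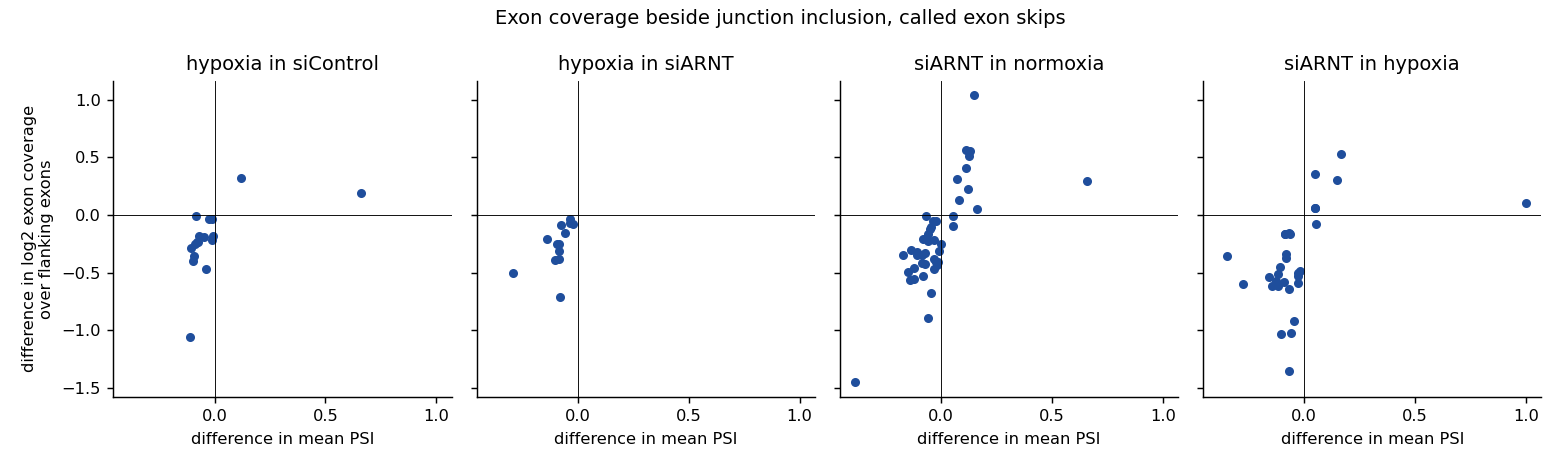
Change in exon coverage relative to the neighbouring exons (vertical axis, log2) against the difference in mean PSI (horizontal axis) for called frame-preserving members, by comparison. The signs match for 17 of 17, 13 of 13, 42 of 44 and 30 of 31 members.

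In all, 6 lists of host genes were read as background, each gene by its member with the most reads. Of all exon skips 0.619% were called in at least 1 comparison, and of all members 0.761%. The counts of 0 to 2 per list are small and were not tested against these shares. Each listed gene was read by its deepest member, and called members were deeper than most. These shares are therefore not a matched background. Among 33 genes listed for exons known to differ between epithelial and mesenchymal cells, 0 were called in any comparison at the member with the most reads. That member need not be the exon known to differ, so the count does not speak for those exons. Deep examples ranged from nearly always included to mostly skipped. PSI lay between 0.96 and 0.98 for CTNND1 (63 nt) and between 0.95 and 0.96 for ITGA6 (174 nt) over the 12 samples. The 168 nt APLP2 exon lay at 0.17 to 0.28. Of 22 hypoxia-linked genes, 1 was called, WSB1, as above. Of 71 RNA-processing genes 0 were called, with HNRNPA1 (147 nt) at 0.97 to 0.98 and HNRNPK (129 nt) at 0.95 to 1.00. HNRNPK skip reads ran from 0 to 152 between samples of normoxia siControl alone, so its range is uncertain. Of 50 cytoskeleton and adhesion genes, 2 were called, ADD3 for hypoxia in siControl and PARD3 for siARNT in hypoxia. Of 44 membrane traffic genes and 57 chromatin and transcription genes 0 were called, and examples were CLTC (168 nt) at 0.95 to 1.00 and KDM1A (60 nt) at 0.40 to 0.49. All 79 skip reads of CLTC came from 1 hypoxia siARNT sample, so its range rests on that library. Median log2 odds ratios over the epithelial list were -0.14, -0.04, -0.08 and 0.07 in the 4 comparisons between groups, and over all members -0.02, -0.07, -0.06 and -0.14. Over all member events of the lists, 1 of 158 was called in the epithelial list, 1 of 71 in the hypoxia list, 4 of 219 in RNA processing, 5 of 213 in cytoskeleton and adhesion, 1 of 118 in membrane traffic and 1 of 146 in chromatin and transcription. Called members of listed genes that were not the deepest event of their gene were in APLP2, PCBP2, DDX5, RBM39, ABI1, KTN1, MAP4, PICALM and BRD8.

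The level of the host gene is a separate measure from the use of the exon. Of 16999 genes tested with edgeR's quasi-likelihood test, 25.3% were called for hypoxia in siControl, 4.09% for hypoxia in siARNT, 20.2% for siARNT in normoxia, 29.1% for siARNT in hypoxia and 4.69% in the interaction. Among the 4138 host genes of members these shares were 35.3%, 4.16%, 27.3%, 38.1% and 6.31%. Host genes are expressed highly enough for junctions to be counted, and the difference from all genes was not tested. Of the genes of called members, the gene level was called in 4 of 13 for hypoxia in siControl, 1 of 9 for hypoxia in siARNT, 14 of 36 for siARNT in normoxia, 11 of 22 for siARNT in hypoxia and 0 of 2 in the interaction.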

How the data were processed

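Poly(A) RNA of 12 AsPC-1 samples was used, 4 groups of 3, with groups and replicate letters from the sample titles. Per the submitters' processing notes, the tools include Trimmomatic and STAR 2.4.2a and the build GRCh38.p10; the tool that made the event table is not given in the sources used here. The authors deposited junction read counts, PSI as a fraction, and exon coverage for each exon skip, and raw read counts per gene. PSI recomputed from the deposited counts matched within 0.00501 for 100% of values, and 125 member values were missing. Only 0.467% of event exons lay at the same position in GENCODE 29, so the event coordinates are in an unnamed build and are not printed. Printed coordinates and sequences were found by gene, exon length and both intron lengths.

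Inclusion was the rounded mean of the 2 inclusion junctions. edgeR 4.0.16 (R 4.3.3) quasi-likelihood fits used 2 columns a sample, a term for each sample and a form by group term, on all 12 samples and 21477 exon skips, with Benjamini-Hochberg adjustment within a comparison. Dispersion was set to 0 and the quasi-dispersion carried the spread. This setting replaced edgeR's default trend after the default, DESeq2 and limma calls on these data had been seen, and was picked from 5 settings compared on 1 simulated draw; it was then tested on 3 further simulated draws. Gene counts were tested with edgeR (TMM, filterByExpr). Reads in no gene (22.7 to 25.2% of a library) were left out. DESeq2 1.42.0 and limma 3.58.1 (pseudocount 0.5) were alternatives, with other read minimums, the lower junction, 1 event per exon, replicate and well terms, and leaving out each library.

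Up to 6 called exons per comparison with the largest PSI difference and no overlap between groups were named, 1 event per exon, and up to 4 examples per gene list. Members, lists and rules were chosen with earlier results of these data known. The fits behind the named calls did not pair samples by replicate letter. Reads carry no molecular identifiers, so the limit given for a count of 0 covers counting error only. Other kinds of splicing event were not analysed here. A few results on single genes are not reported here.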

Additional observations from a re-analysis of the deposited data

Results flagged for a closer look

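For 3 members the hypoxia difference in siARNT differed from that in siControl by the interaction test (edgeR quasi-likelihood, adjusted p under 0.05). The fitted log2 odds ratio of the interaction was 9.10 for the 108 nt exon of RPL10 (adjusted p 0.000139) and 9.24 for its 63 nt form (adjusted p 5.85e-05), which share 1 skip junction with 0 reads in normoxia siControl. It was 8.78 for the 72 nt exon of RNF103 (adjusted p 0.0195), which was called in 6 of 12 leave-one-library fits (adjusted p 0.0148 to 0.126). All 3 sizes rest on groups at or near 0 reads of 1 form, so they are no measure of the size of a change.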

How the results depend on the processing

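Called members number 17, 13, 44, 31 and 3 for the hypoxia comparisons (siControl, then siARNT), the siARNT comparisons (normoxia, then hypoxia) and the interaction; lists of 5 counts below keep this order. The settings of the spread, added after the data were seen, gave 2, 0, 2, 1 and 3 (edgeR's default trend), 3, 0, 3, 1 and 3 (newer quasi-likelihood with its common dispersion), 12, 8, 34, 19 and 3 (dispersion 0 with an abundance trend) and 13, 6, 40, 24 and 3 (dispersion 0 with newer quasi-likelihood). DESeq2 gave 25, 20, 41, 43 and 14, limma 2, 4, 2, 4 and 4, the lower junction 12, 15, 29, 13 and 1, a rarer form of at least 5 reads 19, 16, 68, 42 and 2, and a PSI difference of at least 0.1 gave 4, 3, 17, 12 and 0. Fits on the 6 samples compared gave 21, 5, 31 and 7. Counts stayed within 1.5 times with a mean of at least 10 reads, at least 20 reads in every sample and 1 event for each exon. With the lower junction the 63 nt form of RPL10 turned, to log2 odds ratios of 0.43 (siControl hypoxia) and -0.25 (interaction); that junction held 0 reads in every sample of 3 groups.

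Leaving out 1 library gave ranges of 10 to 15, 2 to 14, 10 to 43, 6 to 27 and 2 to 6 members. Counts moved by over 1.5 times without normoxia siControl A (10), C (11) or hypoxia siARNT A (11) for the first comparison, without hypoxia siARNT A (5) or B (2) or normoxia siARNT A (5), B (3) or C (7) for the second, without normoxia siARNT A (14), B (20) or C (29) or normoxia siControl A (10) or C (18) for the third, without hypoxia siARNT A (15), B (6) or C (17), hypoxia siControl A (13), B (13) or C (20) or normoxia siControl C (19) for the fourth, and without hypoxia siARNT A (6) or C (6) for the fifth. No named call turned in 540 such fits, and 360 of them kept the call. Host gene calls ranged over 956 to 1744, 29 to 184, 558 to 1367, 1152 to 1843 and 88 to 444 against 1462, 172, 1128, 1578 and 261, and were within 1.5 times under DESeq2, other scaling and no filter, except 172 for the interaction without a filter.

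Samples of the same letter (A, B or C) correlated at -0.064 to 0.146 in their deviations (median 0.044, 3 of 18 pairs over 0.1). Samples of different letters correlated at -0.158 to 0.126 (median -0.029, 2 of 36 pairs over 0.1). Whether the letters mark pairs was not settled. With the replicate block, calls were 58, 73, 100, 60 and 7, with a block for the transfected well 78, 95 and 17 (hypoxia comparisons and interaction), and none of the 45 named calls was lost under the first. Depth limits most members, whose skip form has few reads.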
